A study of Homo sapiens with 6 samples.

Results

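The genes described here are those of amino acid transporters in MDA-MB-231-DR cells. They were taken from the deposited gene table as the protein-coding rows whose symbol belongs to the families SLC1, SLC3, SLC6, SLC7, SLC36, SLC38 or SLC43, with the cystine carrier SLC7A11 left out. The rule itself reads symbols and gene type and no measured value. It gave 59 of the 58302 rows, with 7 genes of the SLC1 family, 2 of SLC3, 19 of SLC6, 13 of SLC7, 4 of SLC36, 11 of SLC38 and 3 of SLC43. One of the 13 SLC7 rows is SLC7A6OS, which is named for lying opposite SLC7A6 and encodes no transporter. It was kept because its symbol fits, and the number called lower and the median log2 fold change with all libraries are also given without it. The SLC6 family also holds carriers of creatine, taurine, betaine and neurotransmitters.

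MDA-MB-231 is a triple-negative human breast cancer cell line, and MDA-MB-231-DR is its doxorubicin-resistant derivative, which the study's methods describe as kept in medium with a low concentration of doxorubicin. RNA was sequenced from 3 control libraries of these cells and from 3 libraries of the same cells treated with cyperotundone (CYT), a compound of the sedge Cyperus. The sources used here give neither the CYT dose and treatment time of these libraries nor whether control cells received a vehicle. The labels do not say that the libraries came from separate cultures. The study's statistics section speaks in general of repeated independent experiments without naming the sequencing, so the p-values measure the spread between these libraries, which may be partly or wholly technical.

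Cells take up amino acids through membrane carriers that either couple entry to sodium or exchange one amino acid for another. SLC7A5 (LAT1) brings in leucine and other large neutral amino acids in exchange for glutamine, and it reaches the plasma membrane only when bound to its heavy chain SLC3A2 (4F2hc, CD98). SLC1A5 (ASCT2) exchanges glutamine and other small neutral amino acids. The sodium-coupled SLC38A1 and SLC38A2 (SNAT1 and SNAT2) accumulate glutamine and alanine, and SLC7A1 (CAT1) carries arginine and lysine. Entry of leucine and arginine is sensed by the mTORC1 kinase complex, and shortage of amino acids is answered by the transcription factor ATF4, which many of these transporter genes are known to follow.

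Summed counts per library were 14050849 to 17770102 for control libraries and 13056270 to 14106017 for CYT libraries. CYT replicate 2 stood apart, correlating with the other CYT libraries with r = 0.905 and 0.904 over log2 CPM, against 0.970 between those. CPM is a gene's count relative to the summed counts of its library, adjusted by edgeR's TMM factors unless called unscaled. Counts of 7 markers of the line, among them VIM, AXL and MSN, were well counted in every library, whereas ESR1 and PGR, the hormone receptors that triple-negative cells lack, had at most 4 and 3 counts. All 7 line markers had fitted log2 fold changes below 0 (median -0.91). VIM was called lower (-1.30, edgeR adjusted p = 0.00535) and the other 6 were not called. The part of this shift in the results below was not tested. Of the other luminal markers, CDH1 and EPCAM had at most 16 and 12 counts, but FOXA1 and GATA3 reached 141 and 93. Of markers of other cell types, CD3E of T cells had 0 counts. The endothelial markers PECAM1 and VWF were counted in every library, with 19, 30 and 35 counts of PECAM1 in control and 15, 14 and 8 in CYT, and 5, 13 and 9 counts of VWF in control and 11, 15 and 32 in CYT, and neither was called. The leukocyte marker PTPRC and the liver gene ALB had no count in control, with 7, 2 and 2 counts of PTPRC and 12, 14 and 9 of ALB in CYT.

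Of the 59 genes, 32 passed edgeR's filter on low counts and were tested among 15572 genes. A gene is called when its adjusted p in edgeR's quasi-likelihood test is under 0.05 and its absolute log2 fold change, CYT minus control, is over 1. After CYT treatment 8 of the 32 were called higher (25%), where 15.2% of all genes tested were called higher. The number called lower was 4 (12.5%), where 12.2% of all genes were, and it is 3 of 31 without SLC7A6OS. The median log2 fold change of the 32 was 0.11, and 0.146 without SLC7A6OS, where that of all genes tested was 0.0064. The share called lower was therefore near the background. Passing the filter on low counts can itself depend on the group in which a gene is high, which applies to the weakly counted genes called higher. Of the well-counted carriers, SLC1A5, SLC7A5 and SLC3A2 were not called, whereas SLC38A2 and SLC7A1 fell and SLC6A8 and SLC43A2 rose. In 11 alternative fits, described below, SLC38A2 and SLC6A8 were always called, SLC43A2 in 8 and SLC7A1 in only 4.

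Levels can be compared between genes only per length. The lengths implied by the deposited FPKM matched the exonic length in GENCODE release 29 within 1 bp for 0 of the 32 tested genes, and for SLC3A2 the implied length was 14700 bases against 5178 exonic bases. Levels between genes are therefore given as unscaled CPM per kilobase of GENCODE exon. On this scale SLC1A5 was highest in control, with a level of 127 ± 32.6 (SD, n = 3), followed by SLC7A5 with 90.8 ± 32.8 and SLC3A2 with 51.3 ± 8.71. The ranges of SLC1A5 and SLC7A5 over the control libraries overlapped, but SLC1A5 was above SLC7A5 within each control library. Below them came SLC38A2 with 26.0 ± 6.05, SLC7A1 with 25.1 ± 5.45 and SLC43A3, which were also within each other's spread, and SLC38A1 with 13.9 ± 4.19. After CYT treatment the level of SLC1A5 was 221 ± 123, that of SLC7A5 101 ± 43.7 and that of SLC3A2 54.3 ± 4.69. The level of SLC38A2 after CYT was 8.18 ± 4.15 and that of SLC7A1 11.98 ± 1.11, so SLC38A1 with 14.8 ± 8.71 and SLC6A8 with 22.9 ± 10.9 stood above both by their means, within overlapping spreads. SLC1A5 and SLC7A5 together held 50.7% ± 6.53 of the level summed over the 59 genes, on the same scale, in control and 59.2% ± 14.3 in CYT. By library this share was 56.5%, 43.6% and 52.1% in control and 67.5%, 42.7% and 67.4% in CYT. CYT replicate 2 was thus below every control library. In all, 20 of the genes had a mean of at least 1 deposited FPKM in either group. Of these, 2 were called higher and 4 lower, with SLC7A6OS among the 4. Of all genes tested 15.2% and 12.2% were, but those include weakly counted genes, so the shares are not directly comparable.

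**Figure D1:**
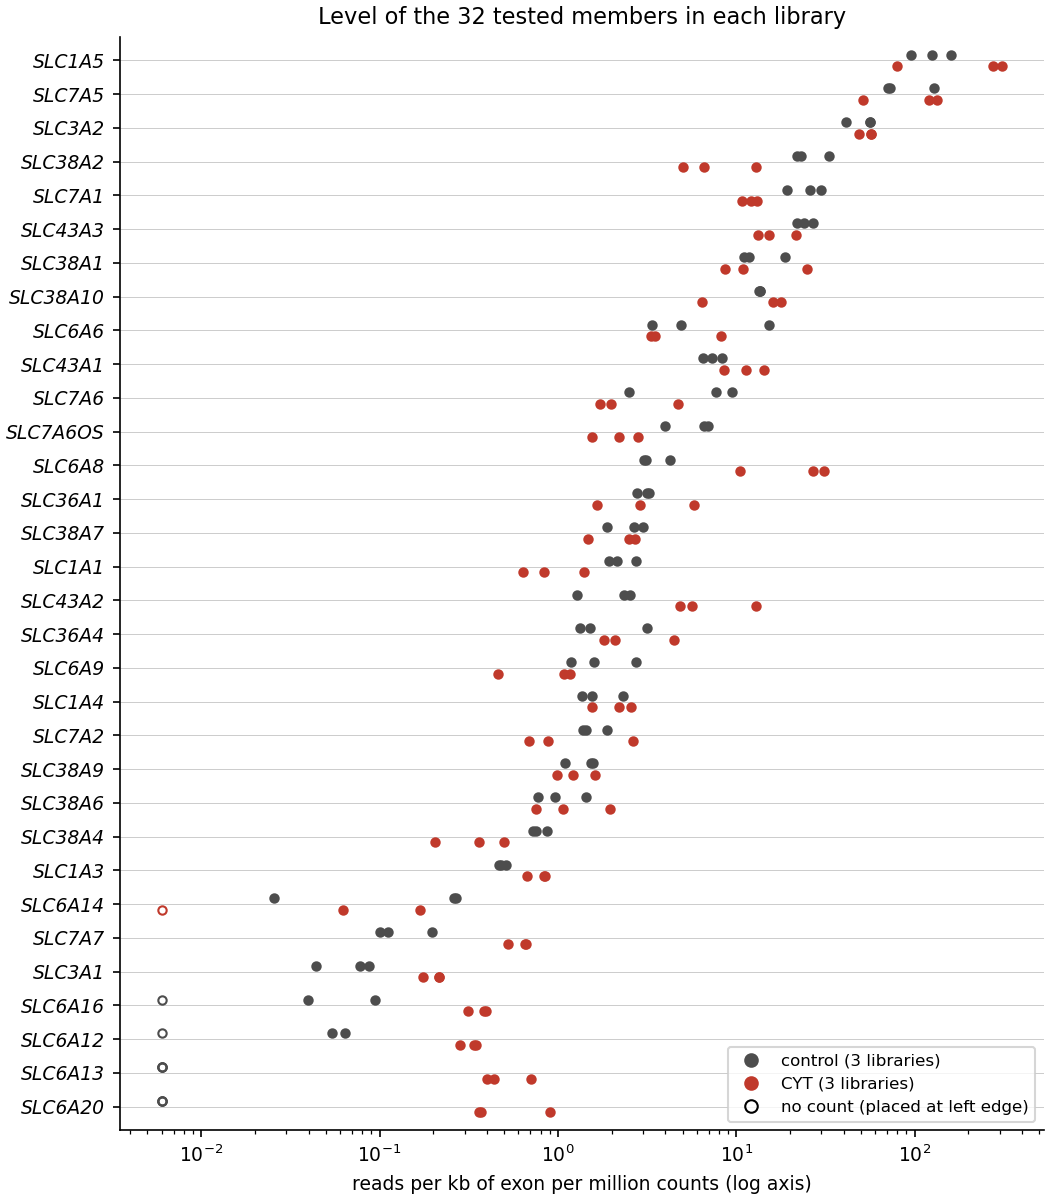
Level of the 32 tested genes in each library, in unscaled CPM per kilobase of exon on a log axis, with genes ordered by their control mean, grey points for the 3 control and red points for the 3 CYT libraries, and open points at the left edge for libraries with no count. SLC1A5, SLC7A5 and SLC3A2 overlap between the groups, whereas the red points of SLC38A2 and SLC7A1 lie below all grey points and those of SLC6A8 and SLC43A2 above them.

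The leucine carrier SLC7A5 and its heavy chain did not pass the test in either direction. SLC7A5 (chr16:87830023-87869488, minus strand, GRCh38) had 657, 328 and 339 TMM-scaled CPM in control replicates 1 to 3 and 567, 227 and 672 CPM in CYT replicates 1 to 3. Both the lowest and the highest of the 6 libraries were CYT libraries, and the groups overlapped. The log2 fold change was 0.15 ± 0.44 (SE), with an edgeR adjusted p of 0.832. SLC3A2 (chr11:62856102-62888875, plus strand), the heavy chain, had 313, 277 and 216 CPM in control and 295, 235 and 314 CPM in CYT. Its log2 fold change was 0.07 ± 0.28 (SE), with an edgeR adjusted p of 0.883. The ranges of SLC3A2 in control and CYT were nearly the same. Since the protein works as a pair, the ratio of SLC3A2 to SLC7A5 was also computed within each library from the deposited FPKM. It was 0.168, 0.299 and 0.225 in control and 0.184, 0.366 and 0.165 in CYT. The mean ratio was 0.231 ± 0.0657 in control and 0.238 ± 0.111 in CYT (SD, n = 3 each, exact two-sided permutation p = 1.0, where the smallest possible is 0.1). With GENCODE exonic lengths the mean ratios were 0.598 ± 0.17 and 0.618 ± 0.288, so in both groups the RNA of the heavy chain was below that of this light chain per exonic base. The pseudogene copies SLC7A5P1 and SLC7A5P2 had at most 1 and 27 counts in any library.

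The glutamine exchanger SLC1A5 (chr19:46774883-46788594, minus strand) had 577, 302 and 420 CPM in control and 1022, 246 and 974 CPM in CYT. Replicates 1 and 3 of CYT lay above every control library and CYT replicate 2 lay below every one of them. The log2 fold change was 0.79 with a standard error of 0.50, and the gene was not called (edgeR adjusted p = 0.263). Without CYT replicate 2 it was called higher, with a log2 fold change of 1.21 (edgeR adjusted p = 0.0125, where the alternatives ranged from 0.0125 to 0.562). An antisense gene, AC008622.2, overlaps 780 of its 3332 exonic bases and had at most 7 counts in control and 27 to 53 in CYT, far below the 3451 to 14484 counts of SLC1A5. Its close relative SLC1A4 (ASCT1), an exchanger of alanine, serine and cysteine, had a log2 fold change of 0.26 (edgeR adjusted p = 0.650).

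**Figure D2:**
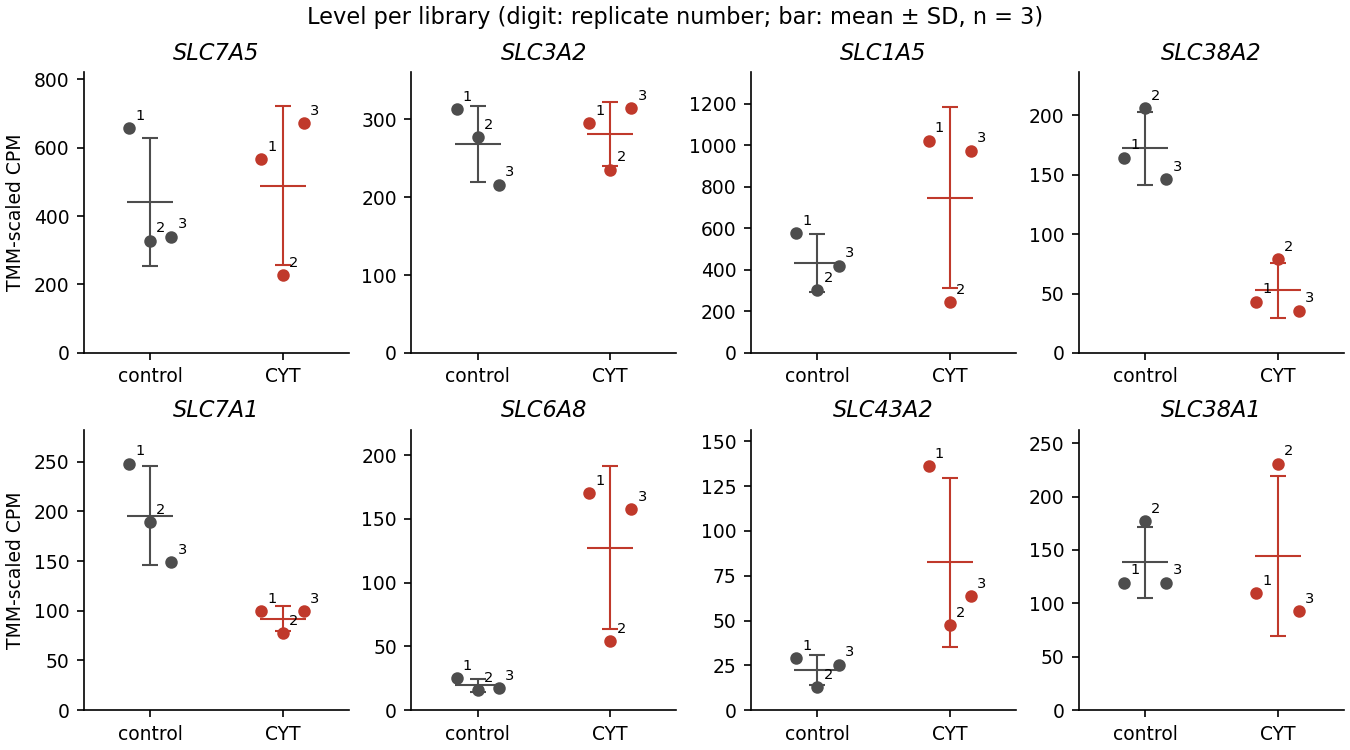
TMM-scaled CPM of 8 transporter genes in each library, with the replicate number beside each point and the mean ± SD of 3 libraries as a bar. In SLC38A2, SLC7A1, SLC6A8 and SLC43A2 the groups do not overlap, and in SLC7A5, SLC1A5 and SLC6A8 CYT replicate 2 is well below the other CYT libraries.

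SLC38A2 fell after CYT treatment. It encodes the sodium-coupled carrier of small neutral amino acids whose gene is best known for being induced when amino acids run short. Its CPM was 164, 206 and 146 in control and 43.2, 79.1 and 35.6 in CYT. No CYT library reached the lowest control library, and replicate 2 was the highest of its group in both. The log2 fold change was -1.71 ± 0.37 (SE), with an edgeR adjusted p of 0.00777, and the call held in all 11 alternative fits. SLC38A2 lies at chr12:46358189-46372867 on the minus strand, between 2 other genes of the family. Its neighbour SLC38A1 (chr12:46183063-46270017), a glutamine carrier, had 119, 177 and 119 CPM in control and 109, 231 and 92.8 CPM in CYT. The CYT libraries of SLC38A1 lay on both sides of the control libraries, with a log2 fold change of 0.06 ± 0.39 (SE, edgeR adjusted p of 0.928), and the sign of that value changed in several alternatives. The other neighbour, SLC38A4 (chr12:46764761-46832408), which carries neutral and cationic amino acids, had 54, 64 and 42 counts in control and 12, 27 and 20 in CYT. The groups of SLC38A4 did not overlap, but it was not called (-1.16 on the log2 scale, edgeR adjusted p = 0.0789), and without CYT replicate 2 it was called lower with -1.43 (edgeR adjusted p = 0.0392, where the alternatives ranged from 0.034 to 0.231). The 4 further tested genes of the family were not called, with log2 fold changes of 0.23 for SLC38A6, -0.18 for SLC38A7, -0.16 for SLC38A9 and -0.0031 for SLC38A10. SLC38A9 is the lysosomal arginine sensor of mTORC1.

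SLC7A1, the main carrier of arginine and lysine in most cells, also fell. It had 248, 189 and 149 CPM in control and 99.6, 77.2 and 99.4 CPM in CYT, with no overlap of the groups. Its log2 fold change was -1.09 ± 0.30 (SE), with an edgeR adjusted p of 0.0246, close to the limit on the fold change. The call was lost without control replicate 1 (-0.90, edgeR adjusted p = 0.0961), control replicate 2 (-1.12, 0.0517), CYT replicate 1 (-1.15, 0.0679), CYT replicate 2 (-0.98, 0.0237) and CYT replicate 3 (-1.12, 0.0668). It was also lost under upper-quartile normalization, where the log2 fold change was -0.93. SLC7A2 (CAT2), a second cationic carrier, had a log2 fold change of -0.22 (edgeR adjusted p = 0.762). The remaining cationic relatives SLC7A3, SLC7A4 and SLC7A14 were too low to be tested.

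SLC1A1 (EAAT3), a sodium-coupled carrier of glutamate, aspartate and cysteine, was called lower at a modest level. It had 135, 194 and 120 counts in control and 47, 73 and 34 counts in CYT, and the groups did not overlap. Its log2 fold change was -1.28 ± 0.37 (SE), with an edgeR adjusted p of 0.0293. The adjusted p was above 0.05 without control replicate 1 (0.0607), control replicate 2 (0.0688), control replicate 3 (0.0717), CYT replicate 1 (0.0924) and CYT replicate 3 (0.105), while the log2 fold change stayed between -1.60 and -1.08 in the fits that left out a library. SLC1A3 (EAAT1), another glutamate carrier, had 45 to 52 counts in control and 55 to 74 in CYT with a log2 fold change of 0.68, and was not called (edgeR adjusted p = 0.193). The difference between these 2 glutamate carriers was not tested.

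The pair SLC7A6 and SLC7A6OS lies on opposite strands of chromosome 16 and shares 3371 exonic bases. SLC7A6 (y+LAT2) is a light chain that exchanges cationic for neutral amino acids. It had 63.0, 18.0 and 73.0 CPM in control and 13.0, 33.2 and 15.97 CPM in CYT. The groups overlapped through replicate 2, which was the lowest control library and the highest CYT library. Its log2 fold change was -1.31 with a standard error of 0.54, not called (edgeR adjusted p = 0.0996). It was called lower without CYT replicate 2 (-1.82, edgeR adjusted p = 0.0250) and without control replicate 2 (-1.74, edgeR adjusted p = 0.0223), and in 4 of the 11 alternative fits in all, with adjusted p from 0.0223 to 0.281. SLC7A6OS was called lower, with 39.1, 19.8 and 34.9 CPM in control and 14.6, 10.7 and 8.66 CPM in CYT (log2 fold change -1.46 ± 0.37, SE, with an edgeR adjusted p of 0.0165). Its adjusted p was above 0.05 without control replicate 1 (0.0635), control replicate 3 (0.0597) and CYT replicate 3 (0.0661). The sources used here do not state whether counting used strand, so reads of the shared bases cannot be told apart between these genes.

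SLC6A8, the creatine transporter, had the largest rise among the genes with at least 1 FPKM. Its CPM was 25.1, 15.8 and 17.3 in control and 170, 53.9 and 158 in CYT. The lowest CYT library, replicate 2, was above the highest control library. The log2 fold change was 2.71 ± 0.46 (SE), with an edgeR adjusted p of 0.00290, and the call held in all 11 alternative fits. As a share of the level per exonic kilobase summed over the 59 genes it was 0.814% ± 0.027 in control and 4.27% ± 0.749 in CYT (SD, n = 3). SLC6A8 lies at chrX:153688099-153696593 on the plus strand. A pseudogene copy, SLC6A10P, had at most 2 counts in any library.

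SLC43A2 (LAT4), a facilitated carrier of leucine and other branched-chain and aromatic amino acids that needs no heavy chain, rose as well. It had 29.1, 12.9 and 25.3 CPM in control and 136, 47.5 and 63.6 CPM in CYT. All CYT libraries were above all control libraries, although CYT replicate 1 was far from the other CYT libraries. The log2 fold change was 1.88 ± 0.47 (SE), with an edgeR adjusted p of 0.0157. The adjusted p was above 0.05 without control replicate 2 (0.0517), control replicate 3 (0.0537) or CYT replicate 1 (0.0599), with a lowest log2 fold change of 1.30. Of the other genes of the family, SLC43A1 (LAT3), with the same kind of substrates, was not called (0.61 on the log2 scale, edgeR adjusted p = 0.197). SLC43A3, a purine nucleobase carrier, was not called either (-0.55 on the log2 scale, edgeR adjusted p = 0.203), although its groups did not overlap.

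The other 6 genes called higher had a mean under 1 FPKM in both groups, so their changes concern few reads. In the SLC6 family, SLC6A20, a carrier of proline and other imino acids, had 0 counts in all 3 control libraries and 34, 78 and 33 counts in CYT. SLC6A13 (GAT2), a carrier of GABA and taurine, also had 0 counts in all 3 control libraries and 24, 39 and 25 in CYT. With 3 counts per library taken as the limit that a count of 0 allows, the lowest CYT library of SLC6A20 was at least 11.1-fold higher than control and that of SLC6A13 at least 7.86-fold higher, a bound that covers counting error only. Both were called, with an adjusted p of 0.00135 for SLC6A20 and 0.00149 for SLC6A13 from edgeR. SLC6A12 (BGT1), the betaine carrier, lies next to SLC6A13 on chromosome 12 on the same strand. It had 0, 6 and 4 counts in control and 21, 24 and 24 in CYT (log2 fold change 3.01 ± 0.76, SE, with an edgeR adjusted p of 0.0162), and its adjusted p was above 0.05 without control replicate 3 (0.0569) or CYT replicate 3 (0.0558). SLC6A16, whose substrate is not established, had 0, 6 and 2 counts in control and 16, 18 and 19 in CYT (log2 fold change 2.96 ± 0.78, SE, with an edgeR adjusted p of 0.0194), and its adjusted p was above 0.05 without control replicate 1 (0.0544), control replicate 3 (0.0874) or CYT replicate 3 (0.0656). The groups of these 4 genes did not overlap. With so few control counts they could pass the filter only through the CYT libraries, so this was fixed in advance.

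The last 2 weakly counted genes called higher form pairs with heavy or light chains in epithelia of kidney and intestine. SLC7A7 (y+LAT1), a light chain for cationic and neutral amino acids, had 9, 18 and 8 counts in control and 48, 35 and 45 in CYT (log2 fold change 2.15 ± 0.47, SE, with an edgeR adjusted p of 0.00843). Its groups did not overlap, and the call was kept in each fit that left out a library. SLC3A1 (rBAT), the heavy chain of the cystine carrier of the kidney, had 5, 9 and 8 counts in control and 20, 15 and 19 in CYT (log2 fold change 1.53 ± 0.51, SE, with an edgeR adjusted p of 0.0486). Its call lay at the threshold: it was made in only 2 of the 11 alternative fits, with adjusted p up to 0.185, and was lost with the replicate number as a block (0.0791). Without control replicate 1 the adjusted p was 0.185, without control replicate 2 or 3 it was 0.125, without CYT replicate 1 it was 0.135 and without CYT replicate 3 it was 0.145. SLC3A1 shares 1923 of its 6541 exonic bases with PREPL on the opposite strand, which had 341 to 950 counts, so its few reads cannot be assigned with certainty.

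**Figure D3:**
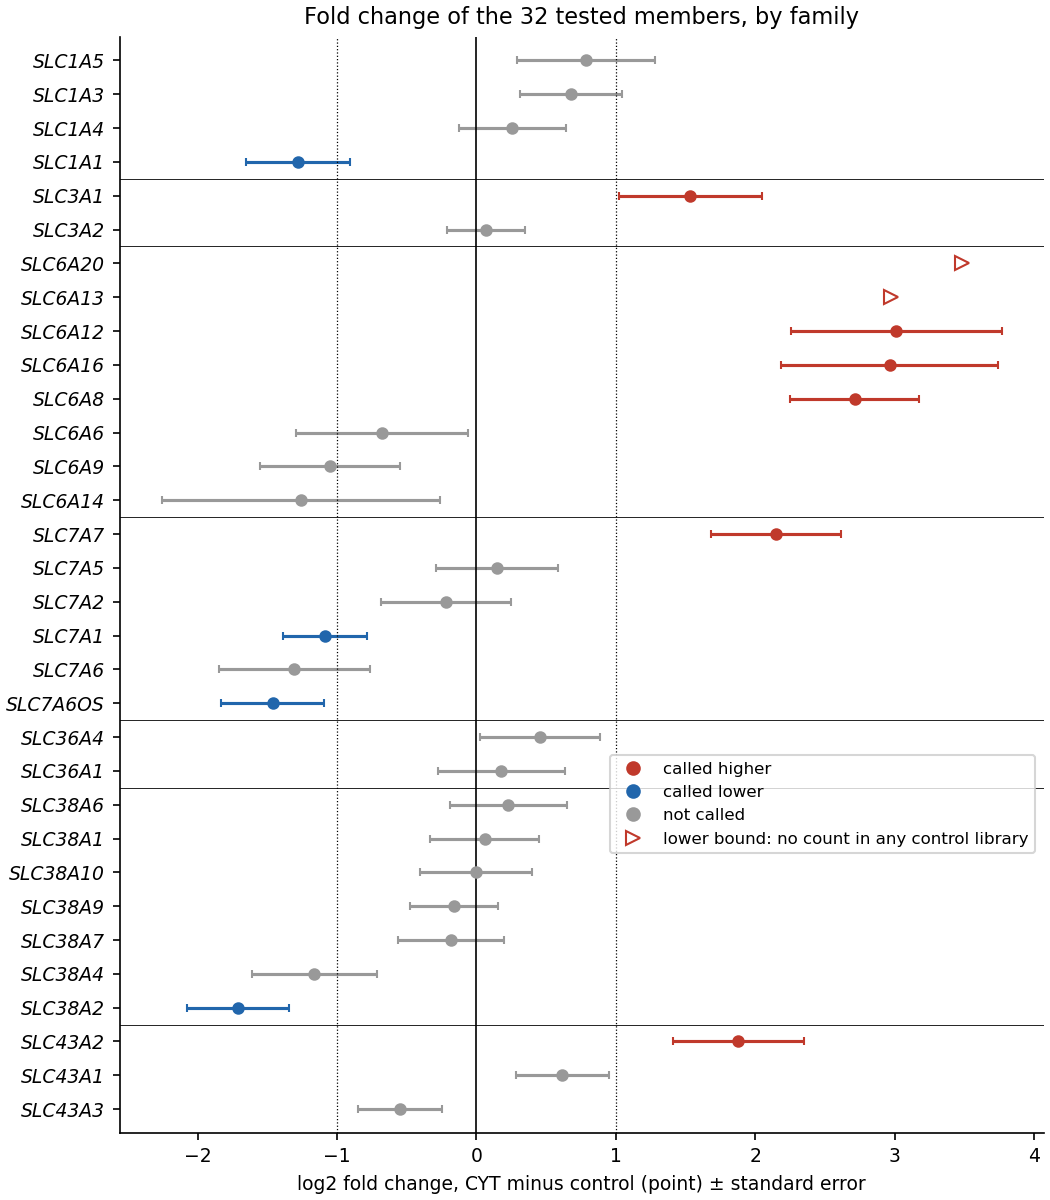
Log2 fold change, CYT minus control, of the 32 tested genes grouped by family, with points for the estimates, bars for ± 1 standard error, dotted lines at -1 and 1, and triangles for the lower bounds of SLC6A13 and SLC6A20, which had no control count. All 5 called genes of the SLC6 family lie to the right, and most genes of the SLC38 family lie near 0 except SLC38A2 and SLC38A4.

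By family, 5 of the 8 tested SLC6 genes were called higher and 0 lower, where 15.2% and 12.2% of all genes tested were. Of these 5, SLC6A12, SLC6A13, SLC6A16 and SLC6A20 had 6 counts or fewer in every control library and passed the filter through the CYT libraries, so their count does not set the family apart. The 3 SLC6 genes that were not called had fitted values below 0, with -0.68 for the taurine carrier SLC6A6 (edgeR adjusted p = 0.444), -1.05 for the glycine carrier SLC6A9 (0.145) and -1.26 for SLC6A14, a carrier of neutral and cationic amino acids (0.373). SLC6A6 had 2183 counts in control replicate 1 against 717 and 390 in the other control libraries, and its log2 fold change without control replicate 1 was 0.32. SLC6A9 was called lower when the replicate number was fitted as a block (-1.07, edgeR adjusted p = 0.0294, where the alternatives ranged from 0.0294 to 0.456). Of the 6 tested SLC7 genes 1 was called higher and 2 lower, namely SLC7A1 and SLC7A6OS, which encodes no transporter. Of the 7 tested SLC38 genes 0 were called higher and 1 lower, and of the 4 tested SLC1 genes 0 higher and 1 lower. The 2 tested SLC36 genes were not called, with log2 fold changes of 0.18 for SLC36A1, a proton-coupled carrier of small neutral amino acids, and 0.46 for SLC36A4, a carrier of proline and tryptophan. Of the 4 tested SLC6 genes of the amino acid branch of the family, in which SLC6A16 was placed by its relatives, 2 were called higher. Of the 4 tested genes known for other substrates, SLC6A6, SLC6A8, SLC6A12 and SLC6A13, 3 were.

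A further 27 of the 59 genes did not pass the filter. SLC7A13 and SLC36A2 had no count in any library. Another 14 had no count in control but some in CYT, 0 had counts in control alone, and 11 were counted in both groups. In 21 of the 27 the highest count was 10 or less. Among the rest were SLC6A11 with up to 35 counts, SLC1A7 with up to 16, SLC1A2 with up to 15, SLC6A17 with up to 13 and SLC7A14 with up to 11. SLC6A11, a GABA carrier, had its 35 counts in control replicate 1 alone, with 7 or fewer elsewhere. The number of the 59 genes with any count was 33, 39 and 37 in control and 48, 44 and 46 in CYT, although CYT libraries had similar or lower summed counts. Such numbers are not given here for the whole gene table. A lean towards CYT at low counts was not limited to the transporters. With the filter dropped, 32060 genes had a median of 0.412 on the log2 scale, against 0.0064 for the 15572 genes that passed it. In that fit 57 of the 59 genes had a median of 0.74. Whether detection of the 59 genes differs from that of other genes was not tested. ALB and PTPRC, named above for their counts in CYT alone, moved the same way as these weakly counted carriers, and their part in the result was not tested.

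CYT replicate 2 bore on many of these values. The TMM-scaled CPM summed over the 59 genes was 2773, 1954 and 1918 in control and 2873, 1552 and 2939 in CYT, so CYT replicate 2 was the lowest of the 6 libraries and the other CYT libraries the highest. Replicate 2 was the lowest library of both groups in 10 of the 32 tested genes (31.2%, against 27.5% of all genes), among them SLC1A5, SLC7A5, SLC6A8 and SLC43A2. It was the highest of both groups in 7 (21.9%, against 27.4% of all genes), namely SLC1A1, SLC7A2, SLC36A4, SLC38A1, SLC38A2, SLC38A4 and SLC38A6. Both shares were near those of all genes, so they do not set the transporters apart. Without CYT replicate 2, 33 of the 59 genes were tested. Then 10 were called higher, where 16.4% of all genes tested were, and 5 lower, where 14.4% of all genes were. SLC7A6OS was among the 5. The 2 added rises were SLC1A5 and SLC6A17, a synaptic vesicle carrier with 0 counts in control and 13, 1 and 10 in CYT (edgeR adjusted p = 0.00614, and 0.0569 to 0.066 where a control library was left out). SLC7A6 and SLC38A4 joined the genes called lower, and SLC7A1 left them. SLC7A5 and SLC3A2 were again not called, with log2 fold changes of 0.49 (edgeR adjusted p = 0.270) and 0.18 (0.612).

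**Figure D4:**
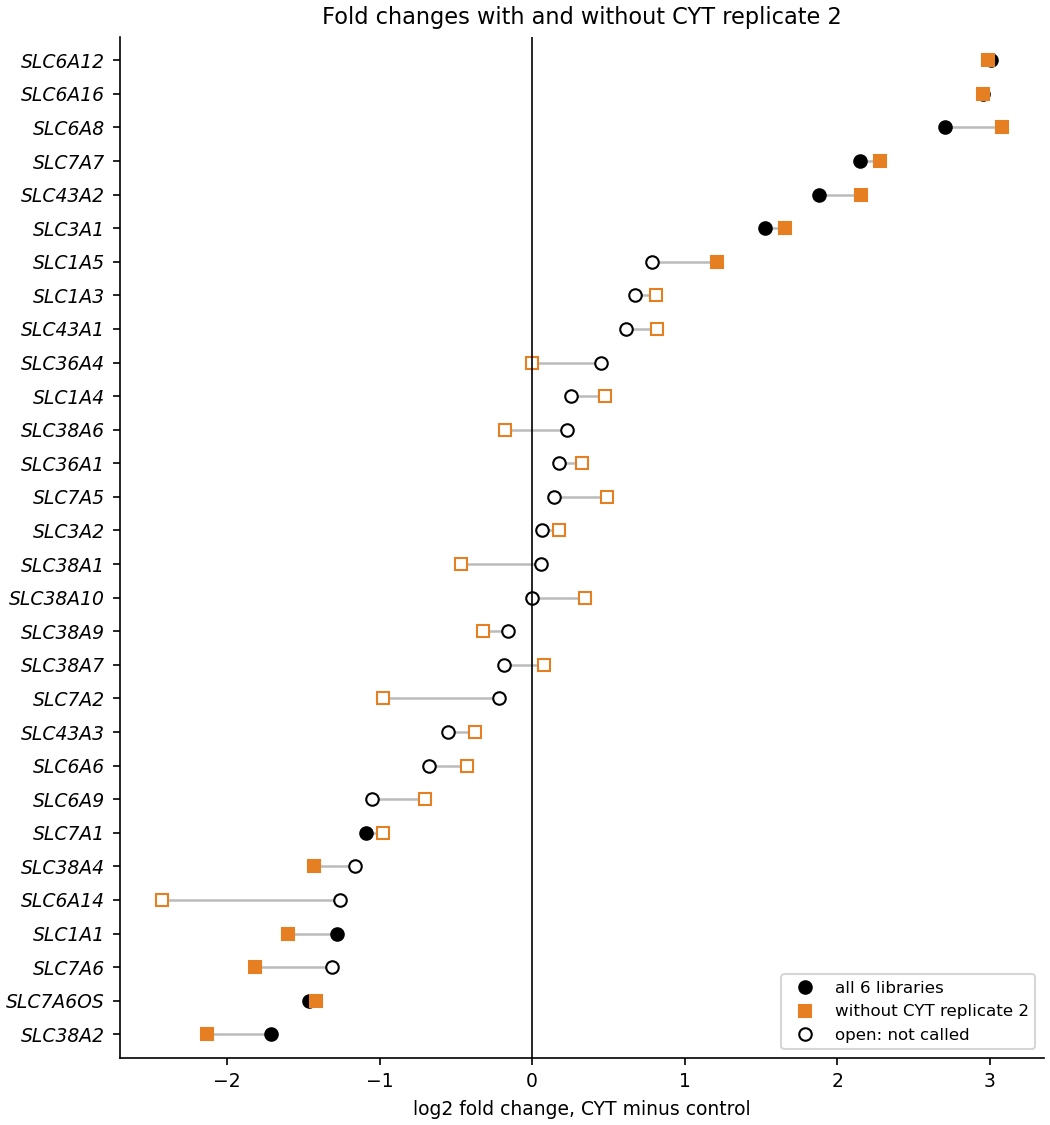
Log2 fold change, CYT minus control, of the 30 tested genes with a count in control, fitted on all 6 libraries (black circles) and without CYT replicate 2 (orange squares), with filled symbols for called genes. SLC1A5, SLC7A6 and SLC38A4 become called and SLC7A1 does not stay called, and SLC38A1, SLC38A6, SLC38A7, SLC38A10 and SLC36A4 change sign without being called.

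The promoters of 3 genes are shown because they are the strongest called fall and rise among the well-counted carriers, SLC38A2 and SLC6A8, and the most abundant light chain, SLC7A5. The sequences are from RefSeq (GRCh38.p14), run 5′ to 3′ on the gene's strand and end before the start of the gene. That of SLC38A2 was cut to the bases outside the gene in GENCODE. The SLC38A2 stretch is chr12:46372868-46373023, minus strand, the SLC6A8 stretch chrX:153687676-153687925, plus strand, and the SLC7A5 stretch chr16:87869508-87869757, minus strand. Capitals mark the E-box CACGTG, the letters bound by MYC and related factors.
SLC38A2: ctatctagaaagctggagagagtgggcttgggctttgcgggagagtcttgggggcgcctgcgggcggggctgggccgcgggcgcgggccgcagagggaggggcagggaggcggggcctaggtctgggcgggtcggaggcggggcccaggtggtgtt
SLC6A8: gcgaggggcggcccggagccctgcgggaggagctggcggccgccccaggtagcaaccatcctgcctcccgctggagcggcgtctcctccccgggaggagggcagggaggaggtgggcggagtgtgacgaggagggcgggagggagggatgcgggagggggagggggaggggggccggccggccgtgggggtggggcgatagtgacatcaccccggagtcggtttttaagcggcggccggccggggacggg
SLC7A5: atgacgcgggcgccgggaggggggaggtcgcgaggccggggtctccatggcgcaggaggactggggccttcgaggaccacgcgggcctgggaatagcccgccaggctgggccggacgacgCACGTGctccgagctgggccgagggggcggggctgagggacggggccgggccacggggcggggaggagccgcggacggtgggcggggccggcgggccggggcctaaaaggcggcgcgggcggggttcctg

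All 3 are rich in G and C, with 73.7% for SLC38A2, 76.4% for SLC6A8 and 79.6% for SLC7A5, where the median of the 45 transporter promoters found in RefSeq was 64.0% and that of all coding promoters 62.4%. The E-box of SLC7A5 begins 130 bases before the start. On either strand of the 250 bases before the start, CACGTG was found in 5 of the 45 promoters (11.1%), where 7.88% of 14888 coding promoters held it. The 5 were those of SLC7A5, SLC43A1, SLC6A16, SLC1A7 and SLC38A5, of which SLC6A16 was called higher, SLC7A5 and SLC43A1 were not called and SLC1A7 and SLC38A5 were not tested. The letters TGATGNAA, the core of the amino acid response element that ATF4 binds, were found in 1 of the 45 (2.22%), SLC1A3, where 2.2% of all promoters held them. Such elements can also lie inside a gene, outside these windows, so a missing match says only that these letters were not in the 250 bases.

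The RNA of ATF4 fell after CYT treatment, from 387, 223 and 407 CPM in control to 103, 67.3 and 80.5 CPM in CYT (log2 fold change -2.02 ± 0.34, SE, with an edgeR adjusted p of 0.00269). ATF4 is known to be controlled in good part by translation of its mRNA, which these libraries do not measure. Of 28 tested genes of the response to amino acid shortage, 2 were called higher (7.14%, against 15.2% of all genes) and 7 lower (25%, against 12.2%), and their median log2 fold change was -0.43. Among those called lower were CHAC1, a glutathione-degrading enzyme (-2.36, edgeR adjusted p = 0.0175), and PSPH, the last enzyme of serine synthesis (-1.23, edgeR adjusted p = 0.0136). The 2 called higher were the stress transcription factors ATF3 (2.87, edgeR adjusted p = 0.00349) and DDIT3 (2.17, edgeR adjusted p = 0.00129). Within the transporters SLC38A2 and SLC7A1 fell, called in 11 and in only 4 of the 11 alternative fits, while SLC7A5 and SLC3A2 were not called.

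Of 37 tested genes of mTORC1, its regulators and the amino acid sensors upstream of it, 4 were called higher (10.8%, against 15.2% of all genes) and 7 lower (18.9%, against 12.2%), with a median log2 fold change of -0.15. Whether these shares differ from those of all genes was not tested, here or in the other lists. The sestrins SESN1 (2.10, edgeR adjusted p = 0.00629) and SESN3 (2.50, edgeR adjusted p = 0.00448), which hold mTORC1 back, rose, as did its inhibitor DEPTOR (1.61, edgeR adjusted p = 0.0271) and its activator RRAGD, a Rag GTPase (1.04, edgeR adjusted p = 0.0447). RPTOR, the scaffold subunit of mTORC1, fell (-1.999, edgeR adjusted p = 0.00360), as did WDR59 of the GATOR2 complex (-1.70, edgeR adjusted p = 0.00283) and TBC1D7 of the TSC complex (-1.71, edgeR adjusted p = 0.00614). Also called lower were NPRL2 (-1.58, edgeR adjusted p = 0.00858) and NPRL3 (-1.95, edgeR adjusted p = 0.0157) of GATOR1, which inhibits mTORC1, LAMTOR1 of its lysosomal anchor (-1.44, edgeR adjusted p = 0.00935) and its subunit MLST8 (-1.73, edgeR adjusted p = 0.0245). Activators and inhibitors of mTORC1 were thus among both the risen and the fallen genes. Of 19 tested enzymes that use the amino acids these carriers bring in, 0 were called higher and 3 lower (15.8%, against 12.2% of all genes), while the median was 0.21. The 3 were the branched-chain transaminases BCAT2 (-2.43, edgeR adjusted p = 0.00224) and BCAT1 (-1.31, edgeR adjusted p = 0.0426) and the kinase BCKDK (-1.60, edgeR adjusted p = 0.0116), which switches off the branched-chain dehydrogenase. The subunits of that dehydrogenase in the same list, BCKDHA (0.39), BCKDHB (0.67) and DBT (0.32), were not called.

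Of 16 tested amino acid carriers of other families, 3 were called higher (18.8%, near the 15.2% of all genes) and 5 lower (31.2%, against 12.2%), with a median log2 fold change of -0.19. The mitochondrial aspartate and glutamate carriers SLC25A12 (-2.13, edgeR adjusted p = 0.00223) and SLC25A13 (-1.97, edgeR adjusted p = 0.00150) fell, as did SFXN3, a mitochondrial serine carrier (-1.55, edgeR adjusted p = 0.00551). SLC16A10 (TAT1), a carrier of aromatic amino acids, rose (2.37, edgeR adjusted p = 0.00228) from 43, 56 and 33 counts to 162, 272 and 135. SLC25A18, a mitochondrial glutamate carrier, rose (3.34, edgeR adjusted p = 0.00142), and so did SLC17A7, which loads synaptic vesicles with glutamate (3.62, edgeR adjusted p = 0.00586).

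**Figure D5:**
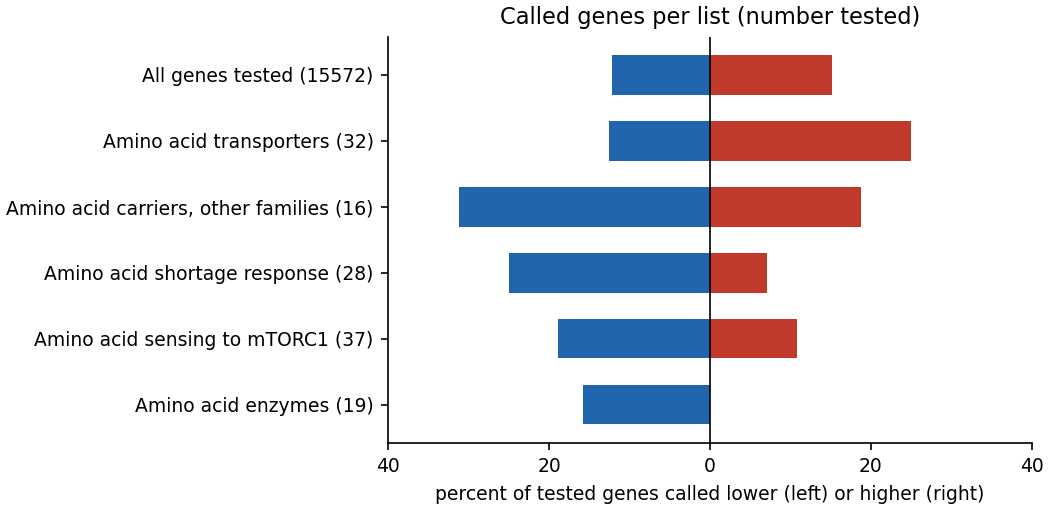
Percent of tested genes called lower (blue, left) and higher (red, right) after CYT treatment, for all 15572 genes tested, the 32 transporter genes and 4 lists of related genes, with the number tested in brackets. The transporters have 25% called higher and 12.5% lower, and no gene of the enzyme list is called higher.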

How the data were processed

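RNA sequencing libraries of 3 control and 3 CYT-treated MDA-MB-231-DR samples were grouped by their labels. The authors deposited 1 table of raw counts per gene and of FPKM values, made from clean reads aligned with Hisat2, and their methods name Stringtie for the FPKM. The counter and its use of strand are not given in the sources used here. Counts were scaled by TMM and tested with edgeR 4.0.16 in R 4.3.3 (filterByExpr with minimum count 10, then the quasi-likelihood test, Benjamini-Hochberg adjustment over all 15572 genes tested). Standard errors were obtained from the fold change and the F statistic. The members, gene lists and tests were chosen with earlier results of these data known. Values in every library are given for SLC7A5, SLC3A2, SLC1A5, the called genes and genes of at least 20 FPKM. Of each related list, up to 3 called genes per direction with the lowest adjusted p are named, and ATF4. RRAGD, NPRL2, NPRL3, LAMTOR1, MLST8, BCKDHA, BCKDHB and DBT were named after their values were seen. Other genes and figure panels, among them SLC38A1 and SLC38A4, are shown as neighbours, overlaps or markers.

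Deviations of same-numbered libraries across genes correlated with 0.188, 0.458 and 0.124. Control 1 with CYT 3 gave 0.303 and control 3 with CYT 1 gave 0.201, so replicates 1 and 3 do not bear out a pairing. Beyond these values only the numbering in the labels bears on it. The main test therefore used no pairing, and the replicate number was fitted as a block only as an alternative. Replicates differed by more than sampling noise (chi-square per gene of at least 25), so none was treated as a copy. A count of 0 allows up to 3 counts, or 0.160 to 0.238 CPM. The biological coefficient of variation was 37.5%. The alternatives tried were limma 3.58.1 on log2(FPKM + 1), DESeq2 1.42.0, no filter, upper-quartile normalization, the replicate block, and each library left out. Leaving SLC7A6OS out was added after the data were seen. The tests were tried on simulated data. Of the members and markers, 2 genes are not reported here by name.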

Additional observations from a re-analysis of the deposited data

How the results depend on the processing

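All 12 called genes kept their direction in all 11 alternative fits, and 2 of them, SLC38A2 and SLC6A8, were called in every one. Of the 20 tested genes that were not called, 4 (SLC1A5, SLC38A4, SLC6A9 and SLC7A6) had a call in at least 1 fit and 10 changed sign. limma on log2(FPKM + 1) called 1 gene lower and 2 higher. The falls it lost, SLC7A1 (-0.983), SLC7A6OS (-0.915) and SLC1A1 (-0.731), had adjusted p under 0.05 there but a log2 fold change within 1. The rises it lost had smaller log2 fold changes there, with 0.468 for SLC6A20, 0.428 for SLC6A13, 0.264 for SLC6A16, 0.244 for SLC7A7, 0.191 for SLC6A12 and 0.107 for SLC3A1, all but SLC3A1 with adjusted p under 0.05. Without each library in turn, 1 to 5 genes were called lower and 4 to 10 higher. The lowest count of falls, 1, came without control replicate 1 and without CYT replicate 3, and it was 2 without control replicate 3 or CYT replicate 1. The lowest count of rises, 4, came without control replicate 3, and it was 5 without CYT replicate 3. The replicate block gave 5 lower and 7 higher, and it changed only the calls of SLC3A1 and SLC6A9 named above. Only upper-quartile normalization and the fit with no filter moved the median of all genes by over 0.1, to 0.155 and 0.412. With no filter, SLC6A17 was called higher (edgeR adjusted p = 0.0154). That fit covered 57 of the 59 genes, and their median was 0.74, against 0.106 for the 32 tested genes.

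That median ranged from -0.0341 to 0.254 over the fits that left out a library, and the log2 difference of the SLC3A2 to SLC7A5 ratio from -0.366 to 0.209, against -0.00828 with all libraries. Over the same fits the log2 fold change ranged from -0.0926 to 0.176 for SLC3A2, -1.27 to 0.324 for SLC6A6, -0.976 to 0.0901 for SLC7A2, -0.116 to 0.531 for SLC7A5, -0.496 to 0.512 for SLC36A1, -0.00123 to 0.854 for SLC36A4, -0.465 to 0.305 for SLC38A1, -0.175 to 0.481 for SLC38A6, -0.396 to 0.0755 for SLC38A7 and -0.286 to 0.348 for SLC38A10. The sign also changed for SLC36A1 with the block (-0.0317), for SLC38A1 with no filter (-0.0329), limma (-0.00565) and the block (-0.036), and for SLC38A10 with DESeq2 (0.0357) and upper-quartile normalization (0.143). The cause was not tested.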
